A study of Mus musculus with 40 samples.

Results

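The Lsm genes encode small RNA-binding proteins, and the question was whether Lsm8 moved with its partners in the pancreas of mice on different maternal and post-weaning diets. The family was taken as the 10 genes Lsm1, Lsm2, Lsm3, Lsm4, Lsm5, Lsm6, Lsm7, Lsm8, Lsm10 and Lsm12, found by the gene symbol of the probes, and it was represented by 15 of the 25697 probes and 10 of the 16593 named genes of the array. A probe was tested when at least 20 of the 40 arrays had it above the array's median, which held for 11 Lsm probes of 9 genes and 12246 probes in all. The family was chosen on the post-weaning difference of Lsm8 in these same arrays, so that the post-weaning values below are a description. Whole pancreas of 40 male 9-week-old C57BL/6J mice was hybridized, 1 array per animal. Dams were kept on a coconut-oil-based diet low (LF) or high (HF) in fat from before mating through pregnancy and lactation. Their pups were weaned onto one of the same diets. Groups carry the dam diet first, so that the 4 groups LF_LF, LF_HF, HF_LF and HF_HF each held 10 animals, without any transgene or drug. Their litters filled 12 birth cages, each of a single dam diet (6 LF, 6 HF), and 5 cages supplied both post-weaning diets.

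Lsm proteins fold like the Sm proteins of the spliceosome and close into rings that hold the end of an RNA. The ring of Lsm2 to Lsm8 sits in the nucleus, binds the oligouridine tail of U6 snRNA and is needed for splicing. In the ring of Lsm1 to Lsm7, Lsm1 takes the place of Lsm8, and that ring acts in the cytoplasm, where it binds deadenylated mRNA and promotes decapping. Lsm2 to Lsm7 are therefore shared by both rings, and Lsm8 and Lsm1 are the subunits that tell them apart. Lsm10 is a subunit of the U7 snRNP, which processes the ends of replication-dependent histone mRNAs, and Lsm12 carries an Lsm domain without being part of either ring. In an acinar tissue such as the pancreas these are housekeeping functions.

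Upstream sequences from RefSeq (GRCm38.p6, the 250 bases before the start of transcription) were matched by symbol for 7 of the 10 genes, in 9 windows. They are shown for Lsm8, for Lsm5, which followed Lsm8 most closely within groups, and for Lsm10 and Lsm2, because these and Lsm8 held the motif of NRF1, an activator of many housekeeping promoters. Capitals mark GCGCATGC (NRF1) and CCGGAAG (ETS factors) on either strand, and each line runs 5′ to 3′ toward the start of the gene.
Lsm8, chr6:18848385-18848634, plus strand: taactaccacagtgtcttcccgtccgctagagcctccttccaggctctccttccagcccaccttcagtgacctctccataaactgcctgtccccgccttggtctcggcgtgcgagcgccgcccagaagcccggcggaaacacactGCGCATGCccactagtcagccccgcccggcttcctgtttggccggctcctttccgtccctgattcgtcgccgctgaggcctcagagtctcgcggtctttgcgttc
Lsm5, chr6:56704700-56704949, minus strand: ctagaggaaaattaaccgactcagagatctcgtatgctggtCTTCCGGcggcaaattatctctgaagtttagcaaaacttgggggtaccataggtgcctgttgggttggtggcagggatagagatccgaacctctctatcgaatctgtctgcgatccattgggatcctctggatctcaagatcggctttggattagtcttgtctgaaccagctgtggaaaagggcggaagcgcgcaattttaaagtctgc
Lsm10, chr4:126096403-126096652, plus strand: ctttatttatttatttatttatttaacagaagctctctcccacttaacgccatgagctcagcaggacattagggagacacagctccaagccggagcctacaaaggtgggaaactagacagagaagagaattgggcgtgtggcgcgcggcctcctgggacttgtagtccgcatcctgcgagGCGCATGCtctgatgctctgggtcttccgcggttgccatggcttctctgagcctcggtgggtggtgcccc
Lsm2, chr17:34981604-34981853, plus strand: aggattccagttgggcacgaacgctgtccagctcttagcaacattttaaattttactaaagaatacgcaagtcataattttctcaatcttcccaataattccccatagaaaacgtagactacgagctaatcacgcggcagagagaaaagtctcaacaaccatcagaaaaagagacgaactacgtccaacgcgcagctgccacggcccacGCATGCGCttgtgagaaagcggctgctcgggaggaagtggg
The motif GCGCATGC was found in 3 of the 9 windows, of 3 genes, against 2.26% of the 32851 upstream windows of the same length in the table. It began 105 bases before the start of Lsm8 and 70 bases before that of Lsm10, and in Lsm2 it lay on the other strand. A further Lsm2 window (chr17:34981880-34982129) did not hold it, and the windows of Lsm7 overlapped each other. CCGGAAG was found in 1 window, that of Lsm5, against 6.91% of all windows, and CCAAT, searched on both strands as well, in 3 (Lsm2, Lsm5 and Lsm10) against 33.8%. TATAAA was found in none of the 9, against 12.4%. None of these motifs overlapped another in the 9 windows. A match is a run of letters and was not tested as a binding site.

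The median signal of an array was at most 63, and arrays gave correlations of 0.919 to 0.993 between pairs. Background had not been subtracted, so that differences of dim probes are compressed. In all, 3 arrays stood apart from the median array and also carried a high marker mean of another cell type: LF_LF replicate 1 (fat, lymphocyte and myeloid markers), LF_HF replicate 1 (liver) and HF_HF replicate 5 (myeloid). Values without these 3 arrays are given where named, and not for every member. Of the acinar markers, which define this tissue, 11 of 14 were tested, and their summed signal ranged from 236902 to 249158 in LF_LF, 232483 to 248851 in LF_HF, 231896 to 244843 in HF_LF and 230367 to 250681 in HF_HF. Between the post-weaning diets 2 acinar markers were called higher in HF-fed mice, the transcription factors Ptf1a, by 0.45 on the log2 scale (SE 0.11, limma adjusted p = 0.00685), and Bhlha15, by 0.29 (SE 0.07, adjusted p = 0.0150). None of the tested islet, duct, fat, liver, myeloid, lymphocyte, fibroblast or endothelial markers was called. All 8 tested myeloid markers had a positive average difference, with a median of 0.09, but the dam diets differed. From LF dams 7 of 8 were lower in HF-fed mice (median -0.06), and from HF dams all 8 were higher (0.29). The median also changed sign between LF and HF dams for fat (-0.28, 0.30), liver (0.28, -0.40) and fibroblast markers (-0.01, 0.18). The same held for acinar (-0.01, 0.05) and endothelial markers (-0.03, 0.02). Islet (-0.10, -0.02), lymphocyte (-0.13, -0.003) and duct markers (0.03, 0.0001) kept the sign of their median. Within groups the mean log2 signal of the tested acinar markers, not their sum, correlated with Lsm8 at r = -0.31 over 40 arrays. No marker of any type was called on its limma slope on Lsm8 (log2 units per log2 unit of Lsm8). The slopes were negative for 8 of 8 liver markers (median -0.46), 7 of 7 fibroblast (-0.26), 7 of 8 myeloid (-0.44), 4 of 4 duct (-0.19), 4 of 5 fat (-0.64), 7 of 8 islet (-0.09), 7 of 11 acinar (-0.07), 3 of 4 lymphocyte (-0.03) and 4 of 5 endothelial markers (-0.02). The part of the cell composition in the Lsm values was not tested. In bulk tissue, fewer cells of a type and less RNA per cell cannot be told apart.

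Lsm8 signal was lower in the pancreas of HF-fed mice under both dam diets. The signal of Lsm8 (probe ILMN_2883907), the subunit that defines the U6 ring, ran from 146.1 to 198.1 with a median of 164.8 in LF_LF, and from 130.0 to 152.6 with a median of 140.7 in LF_HF. In offspring of HF dams it ran from 140.3 to 194.2 with a median of 180.2 in HF_LF, and from 123.4 to 163.0 with a median of 138.1 in HF_HF. All 20 HF-fed animals lay below the median of the 20 LF-fed animals, and 11 of them below every LF-fed animal, while the ranges of the groups overlapped under both dam diets. Averaged over dam diets the log2 difference was -0.30 (SE 0.04, 95% interval -0.38 to -0.22, n = 20 against 20), which is a signal 1.23-fold lower, and it was -0.28 without the 3 arrays that stood apart. It was -0.25 (SE 0.05) in offspring of LF dams and -0.35 (SE 0.06) in offspring of HF dams. With a background estimate subtracted from each array the average difference of Lsm8 became -0.39. Partner values with this setting are not given here, so that -0.39 cannot be set beside the partner differences below. The Lsm8 differences were used to choose the family and stand as a description.

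**Figure D1:**
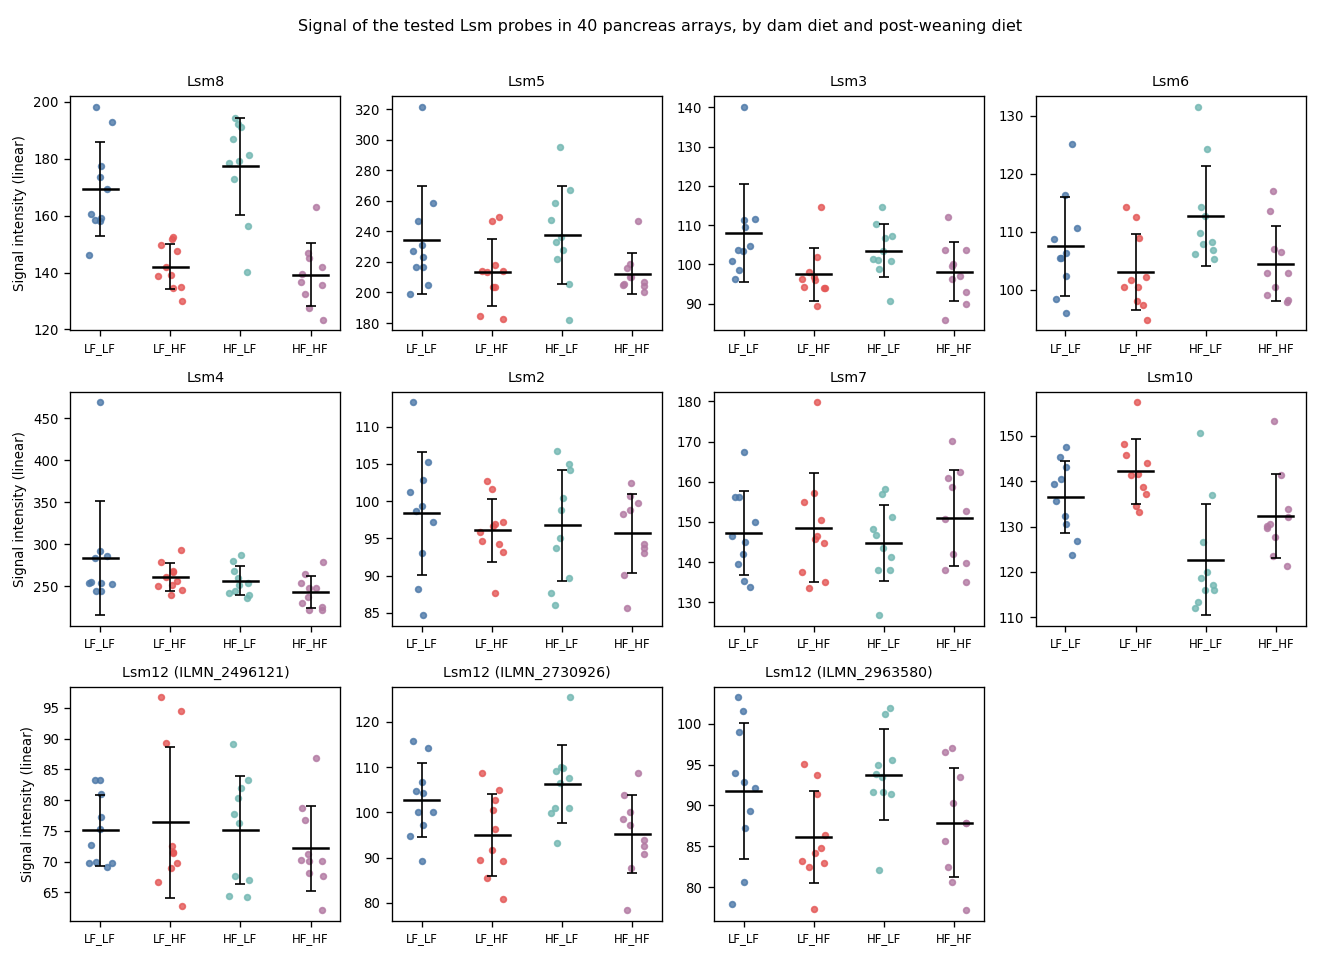
Linear signal intensity (y axis) of the 11 tested Lsm probes in the 4 groups (x axis, dam diet first). Points are animals (10 per group), and black lines and bars give the mean and SD. For Lsm8, all 20 HF-fed animals lie below the LF-fed median of 175.5, whereas the ranges of the other probes overlap widely.

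On signals without background subtraction, the partners shared by both rings had smaller post-weaning differences than Lsm8, which was chosen for the size of its own. Lsm2, Lsm3 and Lsm6 were dimmer than Lsm8, so that their differences can be compressed more. Lsm5, whose signal had a median of 225.2 in LF_LF (198.8 to 321.3), 213.7 in LF_HF (182.7 to 249.3), 234.7 in HF_LF (182.1 to 295.1) and 208.5 in HF_HF (200.6 to 246.5), came nearest. It was lower in HF-fed mice by a log2 difference of -0.14 (SE 0.05, 95% interval -0.25 to -0.04), with 17 of 20 HF-fed animals below the LF-fed median but none below every LF-fed animal. Without the 3 arrays that stood apart this was -0.10. Lsm3 had medians of 104.2 in LF_LF (96.3 to 140.1), 96.1 in LF_HF (89.4 to 114.6), 102.4 in HF_LF (90.7 to 114.7) and 98.4 in HF_HF (85.9 to 112.2). Its difference was -0.11 (SE 0.04, 95% interval -0.19 to -0.04), and 16 of 20 HF-fed animals lay below the LF-fed median. Lsm3 gave -0.09 without the 3 arrays that stood apart. For both genes the 4 groups overlapped.

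The remaining ring subunits differed by less. Lsm6 differed by -0.08 (SE 0.03, 95% interval -0.15 to -0.02), with medians of 106.0, 101.1, 109.1 and 102.8 in LF_LF, LF_HF, HF_LF and HF_HF. Its difference was -0.07 without the 3 arrays that stood apart. Lsm4 differed by -0.09 (SE 0.05, 95% interval -0.19 to 0.02), but 1 animal, LF_LF replicate 1, reached 468.9 where no other exceeded 293.4. That array is among those that stood apart, and without the 3 arrays the difference of Lsm4 was -0.05. The difference of Lsm2 was -0.02 (SE 0.03, 95% interval -0.09 to 0.04). Among the tested probes of ring subunits, that of Lsm7 had a positive difference, 0.04 (SE 0.04, 95% interval -0.04 to 0.11). Of 20 HF-fed animals 9 lay below its LF-fed median, and without the 3 arrays the difference of Lsm7 was 0.06.

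Read within each animal, Lsm8 fell against every tested member, which follows in part from the choice of Lsm8. The log2 ratio of Lsm8 to Lsm7 averaged 0.20 ± 0.14 in LF_LF, -0.06 ± 0.10 in LF_HF, 0.29 ± 0.15 in HF_LF and -0.12 ± 0.11 in HF_HF (SD, n = 10 each), so that HF-fed mice were lower by -0.33 on average and all 20 lay below the LF-fed median. The level of this ratio cannot be read, since the probes differ in brightness, and its differences between groups depend on brightness as well. Without background subtraction, differences of dimmer probes are compressed more. By median signal over all arrays, Lsm2, Lsm3, Lsm6 and the tested Lsm12 probes were dimmer than Lsm8, and Lsm7 and Lsm10 less so. Lsm4 and Lsm5 were brighter than Lsm8. The part of this compression in the ratio differences was not tested. Against Lsm2 the ratio differed by -0.27, against Lsm6 by -0.21, against Lsm4 by -0.21, against Lsm3 by -0.19 and against Lsm5 by -0.16, where 18 of 20 HF-fed animals lay below the LF-fed median.

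Outside the rings, Lsm10 and Lsm12 pointed in different directions between the post-weaning diets. Lsm10 was higher in HF-fed mice by 0.09 (SE 0.03, 95% interval 0.02 to 0.15), and 3 of 20 HF-fed animals lay below the LF-fed median. The 3 tested Lsm12 probes gave -0.14 (ILMN_2730926, SE 0.04), -0.09 (ILMN_2963580, SE 0.03) and -0.02 (ILMN_2496121, SE 0.05), so that they shared a sign and differed in size. The last of these was -0.001 without the 3 arrays that stood apart. The probe ILMN_2730926 had medians of 102.2 in LF_LF (89.3 to 115.7), 94.1 in LF_HF (80.9 to 108.6), 107.1 in HF_LF (93.3 to 125.4) and 95.6 in HF_HF (78.4 to 108.7), with overlap under both dam diets. In all, 4 probes did not pass the filter. Both Lsm1 probes, for the subunit that defines the cytoplasmic ring, had signals of 50.6 to 63.8 and 53.2 to 62.3 and lay above the array median in 2 and 0 of 40 arrays, so that the partner of the other ring was near background and could not be compared with Lsm8. The second Lsm2 probe (ILMN_2800151) was above the median in 17 arrays, just short of the limit of 20, with a signal of 56.2 to 72.5, and the remaining Lsm12 probe (ILMN_1227773) in 2. Fitted without the filter, this Lsm2 probe differed by 0.05 between the post-weaning diets (95% interval 0.001 to 0.10). That is opposite in sign to the tested Lsm2 probe. The nearest probe inside the limit was Lsm12 ILMN_2496121, above the median in 38 arrays.

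Over the family, 2 of the 11 tested probes were called in the average post-weaning comparison at an adjusted p under 0.05 (limma, Benjamini-Hochberg over all tested probes), Lsm8 and Lsm12 ILMN_2730926, both lower. The same comparison called 5.22% of all probes, and 2.47% lower. Because the post-weaning contrasts served to choose the family, these counts and those within each dam diet are given as a description and nothing is read from them. The Lsm12 call was lost when the birth cage was fitted as a fixed block, when 1 mean per cage and group was used, without a filter, or without any 1 of the cages 4, 6, 10, 14, 21 and 23. Among the partners, Lsm3 was called with a stricter filter and Lsm6 without cage 9, and outside the rings Lsm10 was called without cage 23. In offspring of LF dams 0 member probes were called, against 0.0408% of all probes, and 1, Lsm8, in offspring of HF dams, against 2.24%. That last call was lost without cage 21 (log2 difference -0.33) or cage 23 (-0.38), with the cage as a fixed block (-0.34) and with 1 mean per cage and group (-0.36), against -0.35 as reported. The median log2 difference of the 11 probes was -0.09 in the average comparison, against 0.00 over all tested probes, and the 10 probes other than Lsm8 lay between -0.14 and 0.09.

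**Figure D2:**
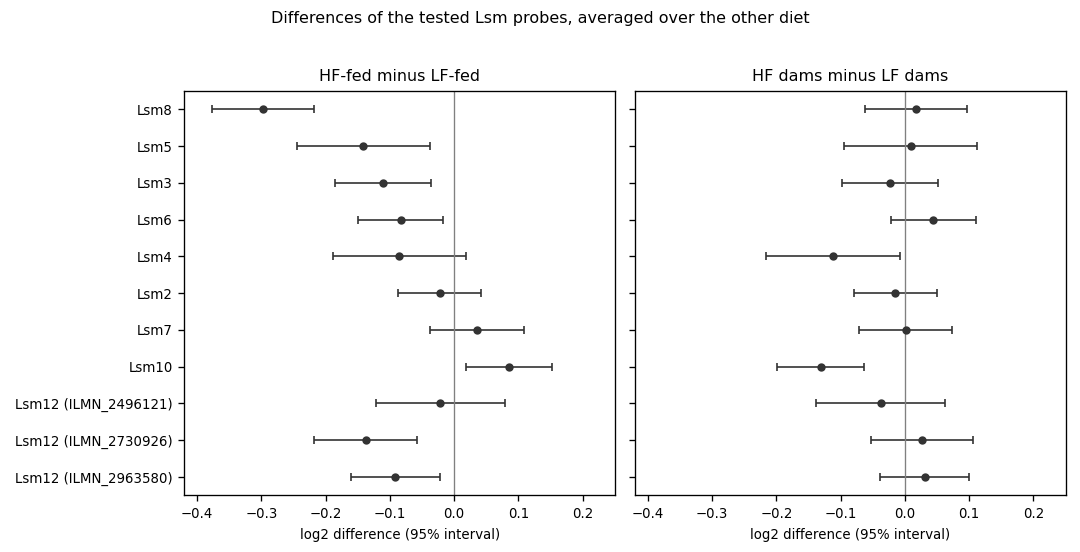
Log2 difference (x axis) of each tested Lsm probe (y axis) between post-weaning diets (left) and between dam diets (right), each averaged over the other diet. Points are estimates over 40 arrays and bars 95% intervals from limma: at left Lsm8 lies at -0.30 and the others between -0.14 and 0.09, and at right Lsm10 lies lowest at -0.13.

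The 5 cages that supplied both diets gave the same sign for Lsm8 in each. In these birth cages, numbered as in the labels, HF-fed mice were lower than LF-fed mice born in the same cage. The mean log2 differences were -0.32 (cage 4), -0.07 (cage 11), -0.36 (cage 10), -0.43 (cage 20) and -0.27 (cage 23), the first pair from LF dams. In cages 10 and 20 one side was a single animal, so that these differences carry no error of their own. Lsm3 and Lsm12 ILMN_2730926 were also lower in all 5 cages, by -0.20 to -0.04 and by -0.21 to -0.01. Lsm5 was lower in 4 of 5 and higher in cage 11 (0.13), where Lsm8 also had its smallest difference. Lsm10 was higher in 4 of 5 cages, and Lsm7 in 3.

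**Figure D3:**
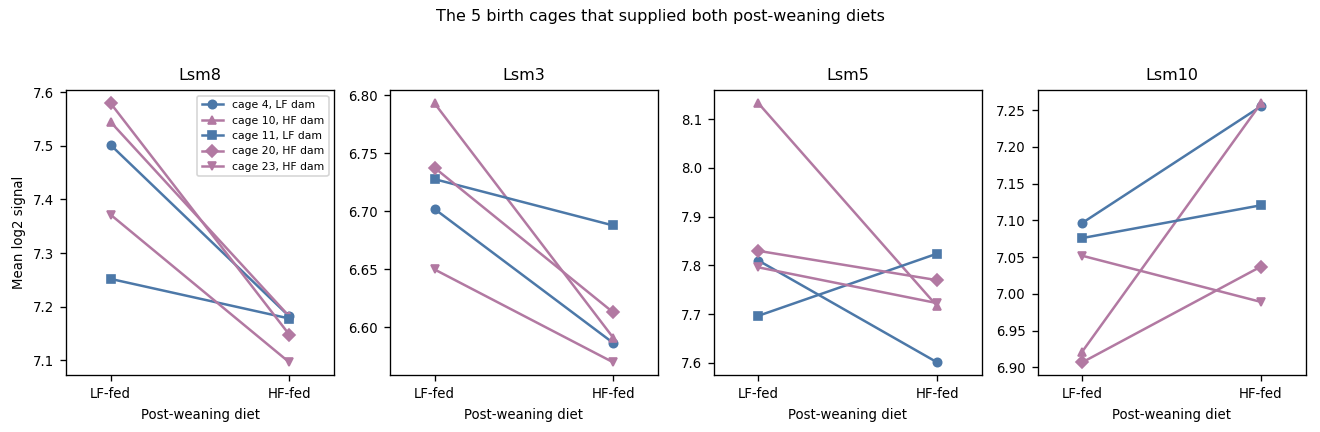
Mean log2 signal (y axis) of LF-fed and HF-fed mice (x axis) in the 5 birth cages that supplied both diets, for Lsm8, Lsm3, Lsm5 and Lsm10. Each line is a cage, coloured by dam diet, over 1 to 3 animals per point: all 5 lines fall for Lsm8 and Lsm3, 4 fall for Lsm5, and 4 rise for Lsm10.

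The dam diet, which was not used to choose the family, was tested next, to ask whether early exposure left a trace in these genes. No member was called, against 0.0653% of all probes in the average comparison (8 of 12246, where 1183 had an unadjusted p under 0.05). Lsm8 itself differed by 0.02 between HF and LF dams (SE 0.04, 95% interval -0.06 to 0.10, limma adjusted p = 0.921). The interval leaves out a change of the size seen with the post-weaning diet, which had been selected for its size. It counts single animals although each cage had 1 dam diet, so that it may be too narrow. Lsm5, Lsm7, Lsm2 and Lsm3 differed by 0.01, 0.00, -0.02 and -0.02, and Lsm6 by 0.04 (SE 0.03). The largest member differences were those of Lsm10, -0.13 (SE 0.03, 95% interval -0.20 to -0.06, adjusted p = 0.0973), and Lsm4, -0.11 (SE 0.05, adjusted p = 0.461), and that of Lsm4 was -0.09 without the 3 arrays that stood apart. Neither passed the correction.

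Lsm10, the U7 subunit, had medians of 137.5 in LF_LF (123.7 to 147.5), 141.4 in LF_HF (133.1 to 157.4), 117.9 in HF_LF (112.0 to 150.6) and 130.4 in HF_HF (121.3 to 153.2). Offspring of HF dams were lower on either diet, with overlap, and 17 of these 20 animals lay below the median of the 20 offspring of LF dams. Cages, which the labels give in place of dams, each had 1 dam diet, so that the cage is the unit closer to this treatment. After the average post-weaning difference was removed, the 6 cage means of LF dams ran from 129.8 to 139.7 and the 6 of HF dams from 113.9 to 128.5 and did not overlap. This held for 1 of the 11 member probes and for 0.531% of all tested probes. No cell type marker was called by dam diet. On average all 5 fat markers (median -0.24) and all 5 endothelial markers (-0.05) were lower in offspring of HF dams. Fat markers were lower in LF-fed mice (5 of 5, -0.54), whereas in HF-fed mice 4 of 5 were higher (0.03). Liver (6 of 8, -0.08), lymphocyte (3 of 4, -0.07), myeloid (6 of 8, -0.06) and fibroblast markers (5 of 7, -0.05) were also mostly lower on average. Of the islet markers 6 of 8 were higher (0.09). The median changed sign between LF-fed and HF-fed mice for liver (0.26, -0.41), myeloid (-0.17, 0.15) and fibroblast markers (-0.08, 0.06). The part of these cell types in the Lsm10 difference was not tested. With 1 mean per cage and group the Lsm10 difference was -0.13 (limma adjusted p = 0.501), and over all alternatives it ran from -0.18 to -0.12 with adjusted p of 0.0659 to 0.501.

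Within single post-weaning diets the dam diet gave 0 member calls and 0% of all probes were called, both in LF-fed mice (1051 probes with an unadjusted p under 0.05, limma) and in HF-fed mice (761 probes). Lsm8 differed by 0.07 in LF-fed mice (SE 0.06, adjusted p = 0.791) and by -0.03 in HF-fed mice (SE 0.05, adjusted p = 0.937). The interaction was called for 0% of all probes (676 with an unadjusted p under 0.05) and for no member. For Lsm8 it was -0.10 (SE 0.08, 95% interval -0.26 to 0.06, limma adjusted p = 0.889), so that the larger fall from HF dams than from LF dams was within the error. For the partners in the ring it lay between -0.05 and 0.07.

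Whether Lsm8 moved with its partners was asked once more between animals of the same group, after each group mean was removed, which takes out the diets. Lsm5 followed Lsm8 and Lsm7 did so less closely, whereas Lsm2 and Lsm4 did not track it. Over 40 arrays Lsm5 correlated with Lsm8 at r = 0.61 (permutation within groups, p = 0.00016) and rho = 0.58 (p = 0.00029), and r was 0.53, 0.40, 0.76 and 0.74 within LF_LF, LF_HF, HF_LF and HF_HF. Without the 2 arrays farthest from the median of Lsm8 (HF_LF replicate 7 and LF_LF replicate 6) r was 0.52, centred on each cage and group it was 0.67, and without the 3 arrays that stood apart 0.66. For Lsm7 r was 0.42 (p = 0.00673) and rho 0.49 (p = 0.00194), with r of 0.30 to 0.59 within the 4 groups, and 0.40 without the 2 farthest arrays. Centred on each cage and group it was 0.36 (p = 0.114).

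The other members lay lower. Lsm3 gave r = 0.27 (p = 0.122) and rho = 0.33 (p = 0.0480), and its r ranged from -0.24 in HF_HF to 0.75 in HF_LF. Lsm6 gave r = 0.21 (p = 0.236), Lsm4 r = 0.04 (p = 0.854), Lsm2 r = -0.03 (p = 0.867) and Lsm10 r = -0.04 (p = 0.807), and the 3 Lsm12 probes gave 0.05 to 0.26. These were 10 relations. Corrected over all probes of the array, the limma slope on Lsm8 was 0.81 log2 units of Lsm5 per log2 unit of Lsm8 (SE 0.18, adjusted p = 0.0743, ranked 11 of 12245) and 0.38 for Lsm7 (SE 0.14, adjusted p = 0.405). Thus 0 of 10 member probes were called, against 0.00817% of all probes. This was 1 probe, of Timm8b, a chaperone of the mitochondrial intermembrane space, named after its value was seen, and 1084 probes had an unadjusted p under 0.05. Lsm5 was not called in the main fit, nor in 15 of 21 alternatives, over which its adjusted p ran from 0.0292 to 0.9997. Among those without a call were no filter, background subtraction, the cage as a random block and 1 mean per cage and group. Lsm5 was called without cage 1 (adjusted p = 0.0454), cage 4 (0.0491) or cage 8 (0.0292), with a stricter filter (0.0492), without an intensity trend (0.0465) and after cyclic loess (0.0496).

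**Figure D4:**
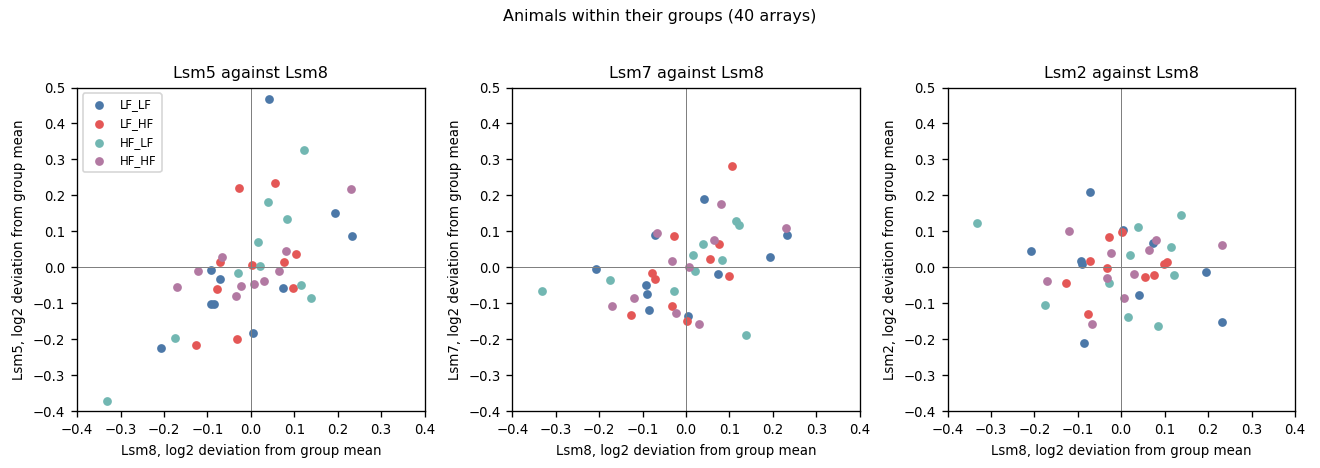
Log2 deviation of each animal from its group mean for Lsm5, Lsm7 and Lsm2 (y axes) against that of Lsm8 (x axes), 40 arrays coloured by group. The points rise together for Lsm5 (r = 0.61), less so for Lsm7 (r = 0.42), and show no slope for Lsm2 (r = -0.03).

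Among the 7 subunits of the nuclear ring the 21 pairwise correlations within groups ran from -0.30 to 0.66 with a median of 0.23, and 15 were above 0. Leaving out the 3 arrays that stood apart lowered the median to 0.13, with 15 still above 0. Lsm5 stood with several other subunits, with r of 0.66 for Lsm3, 0.58 for Lsm7 and 0.43 for Lsm4. The pair Lsm3 and Lsm4 (r = 0.57) and the pair Lsm4 and Lsm5 rested on the arrays that stood apart, since without these 3 arrays r was 0.15 and 0.05, whereas Lsm3 and Lsm5 kept 0.54. The pair Lsm4 and Lsm6 rose from 0.27 to 0.56. Lsm2 had an r of -0.30 to -0.03 with the other 6, but with Lsm8 (r = -0.03) its rho was 0.05, and r was 0.22 without the 2 farthest arrays. Arrays share normalization and RNA quality across genes, and the part of these in the correlations was not tested.

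Body weight and fasting glucose in the labels were compared with the members within groups, and neither was tied to Lsm8. The labels give the second weight as a weight at weaning, although its size is that of an adult mouse. The slope of Lsm8 was 0.0035 log2 units per gram of the second weight (SE 0.01, limma adjusted p = 0.972) and -0.000226 per mg/dl of glucose (SE 0.0006, adjusted p = 0.914). No member was called, against 0% of all probes for either measure (677 and 1343 probes with an unadjusted p under 0.05). The largest member slopes on weight were those of Lsm12 ILMN_2496121, 0.03 per gram (SE 0.02, adjusted p = 0.843), and Lsm10, 0.02 (SE 0.01, adjusted p = 0.843).

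Genes that work beside the rings were examined by lists chosen with earlier results of these data known, and their counts stand beside the 5.22% of all probes called (2.47% lower). No test of a list against other genes was made. Of 12 tested decapping and decay partners of the cytoplasmic ring, 2 were called lower in HF-fed mice and 1 higher, with a list median of -0.01 against 0.00 over all genes. Those lower were Cnot7, a deadenylase, at -0.13 (SE 0.03, limma adjusted p = 0.00418), and Cnot2, a scaffold of the same complex, at -0.09 (SE 0.03, adjusted p = 0.0431). The gene that was higher, Dcp1b, a cofactor of decapping, differed by 0.11 (SE 0.03, adjusted p = 0.0457) and is named after its value was seen. Of 16 tested U6 and tri-snRNP proteins 0 were lower and 1 was higher, Prpf8, the core of the spliceosome, at 0.16 (SE 0.04, adjusted p = 0.0288), with a list median of -0.01. Of 6 tested Sm proteins 1 was lower and 1 higher with a list median of -0.10: Snrpd2, a core Sm subunit, fell by 0.18 (SE 0.04, adjusted p = 0.00448), and Snrpn, an imprinted Sm gene expressed mostly in brain, rose by 0.19 (SE 0.06, adjusted p = 0.0388). Of 6 other proteins with an Lsm domain, Atxn2, a regulator of mRNA stability and translation, rose by 0.16 (SE 0.03, adjusted p = 0.00217), and of 2 tested U7 and histone mRNA processing genes 0 were called. By dam diet 0 genes of these 5 lists were called, where 0.0653% of all probes were, and 0 on the slope on Lsm8, where 0.00817% were.

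The genes most like Lsm8 within groups were sought over 8857 genes and 40 arrays, as a description. The 5 highest were Shprh, a ubiquitin ligase of the response to DNA damage (r = 0.65, rho = 0.58), Pnrc2, an adaptor that links nonsense-mediated decay to decapping (0.65, 0.62), Tefm, the mitochondrial transcription elongation factor (0.64, 0.62), Slirp, a mitochondrial RNA-binding protein (0.63, 0.67), and Cfap97 (0.62, 0.62). Without the 2 arrays farthest from the median of Lsm8 their r was 0.55 to 0.63. Lsm5 ranked 10 of 8857. The 3 lowest were Fto, an RNA demethylase (r = -0.69, rho = -0.65), Glb1, the lysosomal beta-galactosidase (-0.61, -0.55), and Edem2, which acts in the disposal of misfolded glycoproteins (-0.58, -0.58).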

How the data were processed

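Total RNA of whole pancreas was hybridized to Illumina MouseRef-8 v2.0 beadchips, 1 array for each of 40 male mice. The authors deposited signal intensity on a linear scale, exported from BeadStudio (version not given in the sources used here), quantile normalized over the 40 arrays and without background subtraction. Sorted values differed by at most 1.86% between arrays. Detection p-values and array positions were not used here. Nothing was normalized further, and log2 was taken.

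Probes above the array's median on 20 or more arrays were tested (12246 of 25697 probes). Of all probes 23978 had 1 gene symbol, from the platform annotation, and 1719 had none. Groups were taken from the diet labels and compared with limma 3.58.1 in R 4.3.3 (two-sided, intensity trend, Benjamini-Hochberg over all tested probes, called at an adjusted p under 0.05). Comparisons within 1 dam diet or 1 post-weaning diet used their 20 arrays, the averaged effects, the interaction and the slopes all 40, the slopes with 1 mean per group. Comparisons that share groups are not independent. Correlations with Lsm8 were computed on values centred on the group mean, with 100000 permutations within groups (numpy 2.4.6 in Python 3.11.15). Figures were drawn with matplotlib 3.10.9. The limma step was tested on simulated data with 200 moved probes.

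Members and lists were chosen with earlier results of these data known. Named were every member, up to 6 genes of the pathway lists with the smallest p among those called, and the 5 genes most and 3 least correlated with Lsm8, each by its brightest probe. The labels name separate animals and their birth cage, and no dam, and mice of a cage share its dam diet and may share a dam, so that p-values from single animals can be too small. Precision is limited by the number of arrays. Alternatives were no filter or a stricter one (the upper tercile), no trend, cyclic loess, subtraction of each array's percentile 5 plus an offset of 16, leaving out arrays whose distance to the median array exceeded the upper quartile by over 3 interquartile ranges, or whose fat, liver, lymphocyte or myeloid marker mean lay over 3 SD above average (the same 3 arrays), the birth cage as a random or fixed block, 1 mean per cage and group, leaving out each cage, all 40 arrays in 1 fit, and a regularized test written after Cyber-T. Leaving out these 3 arrays in the correlations was added after seeing the data. The 2 arrays farthest from the median of Lsm8 were first taken before group means were removed and then, after both results had been seen, from the group-centred values that were correlated. Upstream sequences were taken from RefSeq.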

Additional observations from a re-analysis of the deposited data

Results flagged for a closer look

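In 44 sets of 10 animals (11 tested probes in 4 groups), 5 had an animal whose gap to the next one exceeded the 95% critical value of Dixon's test, where chance gives about 1 in 20. The highest Lsm4 signal of LF_LF, 468.9 in replicate 1, lay above the next, 292.1, and the highest Lsm3 signal of LF_LF, 140.1, was in the same animal, above 111.7. That array is among the 3 that stood apart, with high fat, lymphocyte and myeloid markers. Lsm3 was also high in LF_HF replicate 8, at 114.6 against 101.8 for the next. Lsm5 was high in HF_HF replicate 7, at 246.5 against 218.8. Lsm12 ILMN_2963580 was low in HF_LF replicate 4, at 82.1 against 91.4.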

How the results depend on the processing

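Most counts of called member probes were 0 in comparisons that called few probes of the whole array, and could hardly move. The average post-weaning count was 2, and 1 without a filter, with the cage as a fixed block and with 1 mean per cage and group, and it ran from 1 to 3 without single cages (3 without cage 9, with Lsm6) and was 3 with a stricter filter, with Lsm3. The count from LF dams was 0, and 1 with all 40 arrays in 1 fit (Lsm8). The count from HF dams was 1, and 0 with the cage as a fixed block and with 1 mean per cage and group, and it ran from 0 to 1 without single cages (0 without cage 21 or 23). The count on the slope on Lsm8 was 0, and 1 (Lsm5) with a stricter filter, without an intensity trend and after cyclic loess, and it ran from 0 to 1 without single cages. The average post-weaning difference of Lsm8, on which the family was chosen, ran from -0.39 to -0.27 and is no independent support. The slope of Lsm8 on weight turned to -0.0032 after cyclic loess and ran from -0.0066 to 0.0112 without single cages, and that on glucose ran from -0.001027 to 0.000225. Correlations with Lsm8 changed sign for Lsm2 (0.2162) and Lsm10 (0.0847) without the 2 farthest arrays, for Lsm4 centred on each cage and group (-0.0322), and after cyclic loess for Lsm10 (0.0228) and Lsm12 ILMN_2963580 (-0.0452). With the 2 farthest arrays taken before group means were removed (LF_LF replicate 6 and HF_LF replicate 4) the correlation was 0.65 for Lsm5, 0.50 for Lsm7, 0.39 for Lsm3 (permutation p = 0.0222), 0.37 for Lsm12 ILMN_2730926 (permutation p = 0.0230) and 0.0102 for Lsm2, which changed sign. The cause of these changes was not tested. No paired analysis was possible because the labels number no replicates across groups, so that none could be made by replicate number. Within-cage values of the post-weaning diet came from the 5 shared cages and the cage as a fixed block. Signal near background limits Lsm1.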
